A study of Homo sapiens with 6 samples.

Results

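The regions described here are the full-length ZNF469 regions that lay at the start of a noncoding gene and at no protein-coding gene start. A region is 1 record of the deposited peak list. It was a member when its summit, the base with the most fragments, lay within 1 kb of a transcription start of a gene that GENCODE version 44 does not type as protein-coding, and farther than 1 kb from every start of a protein-coding gene. The rule found 904 members among 19108 full-length regions (4.73% of the list). It set apart 4328 regions at protein-coding starts and 13876 regions away from all starts. Among the 4328 were 969 regions that also lay near a noncoding start, which the rule leaves out of the members.

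The regions came from CUT&RUN, in which an antibody guides a nuclease that releases the DNA around its target for sequencing. LX-2 cells, an immortalized human line of hepatic stellate cells, which make collagen in the liver, carried a doxycycline-inducible piggyBac transgene for ZNF469, a zinc finger protein. One group expressed full-length ZNF469 (clone3.4) and the other dZF-ZNF469 (clone3.1), from which most of the zinc fingers were deleted. Both received doxycycline at 1 ug/mL for 24 h after drug selection (puromycin per the labels, Geneticin per the methods), both grew with an ascorbic acid derivative, and both were profiled with the same antibody against ZNF469. Each group had 3 libraries, which the authors pooled into 1 list, so no value per library, no replicate error and no test was available. Construct and cell line could not be told apart, and the labels do not say whether a clone name stands for cells or for a plasmid.

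Long noncoding RNA (lncRNA) genes are transcribed by RNA polymerase II from promoters much like those of protein-coding genes, and many start within or beside a coding gene. Pseudogenes are copies of genes that have lost their coding function. Processed pseudogenes were inserted through an RNA intermediate and usually arrived without a promoter, whereas unprocessed ones are duplications that can carry the promoter of the parent. Small RNA genes are short. Some have their own polymerase II or III promoter, such as those for spliceosomal RNAs, while many microRNAs and small nucleolar RNAs (snoRNAs) are cut from the transcript of a host gene. The many further annotated copies of U6, 7SK, 7SL and Y RNA genes are mostly inert relics.

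By the type of the gene with the nearest start, 696 members (77.0%) lay at lncRNA genes, 104 (11.5%) at pseudogenes, 87 (9.62%) at small RNA genes and 17 (1.88%) at other types. With a limit of 2 kb in place of 1 kb, 17.3% were at pseudogenes. The pseudogene group held 61 regions at processed pseudogenes and 13 at unprocessed ones, and most of the rest were at transcribed forms. The small RNA group held 34 regions at small nuclear RNAs (snRNAs), 23 at microRNAs, 21 at miscellaneous RNAs (7SK, 7SL and Y RNA copies among them), 8 at snoRNAs and 1 at a ribosomal RNA gene. Of the lncRNA members, 367 were at genes known only by an identifier, 153 at genes with a LINC symbol, 79 at genes named antisense to another gene, 17 at small RNA host genes and 12 at genes named as divergent from a coding gene. For 63 members, starts of more than 1 class were in reach.

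Few noncoding genes had a member. Among lncRNA genes, 724 of 18866 had a member within 1 kb of a start (3.84%). Only 123 of 15233 pseudogenes (0.807%) and 111 of 7045 small RNA genes (1.58%) did. These shares serve as the background for the gene lists below. They were not matched for the number of annotated starts, and a gene with more starts is in reach more easily. Of 20033 protein-coding genes, 22.3% had any full-length region that near. When noncoding genes with a protein-coding start in reach were set aside, the shares were 4.38% of lncRNA genes (95% Wilson interval 4.06% to 4.73%), 0.783% of pseudogenes (0.653% to 0.938%) and 1.69% of small RNA genes (1.40% to 2.04%). Intervals of this kind cover counting error only.

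The sequences of a few members are shown first, since the results turn on what lies under the summits. The first set holds the letters of AP-1, the factor made of FOS and JUN proteins, within 50 bp of the summit, in each class and including the highest lncRNA region with these letters. Sequences are the plus strand of hg38, 101 bases centered on the summit, and capitals mark TGACTCA or its reverse complement TGAGTCA, with an adjacent E-box (CACGTG) also in capitals. LINC01504 is at chr9:72305295-72305395, ENSG00000253295 at chr5:172758240-172758340, SNHG17 at chr20:38426163-38426263, the pseudogene ENSG00000261635 at chr15:36612562-36612662 and the 7SL copy RN7SL391P at chr12:6345478-6345578.
LINC01504: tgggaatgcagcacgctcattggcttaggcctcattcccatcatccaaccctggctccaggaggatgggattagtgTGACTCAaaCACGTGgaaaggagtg
ENSG00000253295: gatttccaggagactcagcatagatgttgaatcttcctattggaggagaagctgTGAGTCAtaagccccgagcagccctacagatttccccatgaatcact
SNHG17: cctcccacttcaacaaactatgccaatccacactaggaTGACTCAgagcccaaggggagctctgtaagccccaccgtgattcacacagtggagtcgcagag
ENSG00000261635: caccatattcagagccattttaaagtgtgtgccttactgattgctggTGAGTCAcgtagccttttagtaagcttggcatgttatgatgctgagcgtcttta
RN7SL391P: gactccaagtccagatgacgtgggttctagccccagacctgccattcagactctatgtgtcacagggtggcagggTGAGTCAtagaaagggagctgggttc

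The second set shows sequence that several top members share. These are 3 copies of a sequence upstream of genes of the FAM86 family, on the strand of the FAM86 gene, and capitals mark the bases that differ from FAM86GP. FAM86GP is at chr11:3422895-3422995, FAM86EP at chr4:3955778-3955878 and FAM86JP, whose region is nearest a start of LINC02614, at chr3:125916125-125916225. FAM86EP differs from FAM86GP at 6 of 101 bases and FAM86JP at 5.
FAM86GP: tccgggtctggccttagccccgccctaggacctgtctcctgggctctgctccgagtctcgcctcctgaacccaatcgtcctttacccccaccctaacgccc
FAM86EP: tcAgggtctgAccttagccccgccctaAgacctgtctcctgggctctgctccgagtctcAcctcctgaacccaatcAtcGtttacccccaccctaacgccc
FAM86JP: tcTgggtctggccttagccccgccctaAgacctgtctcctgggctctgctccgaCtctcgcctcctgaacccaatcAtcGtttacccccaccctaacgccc

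The third set shows the 2 members that were also in the dZF list, again as the plus strand centered on the summit. Neither window holds any of the 12 motifs searched. RNU6-1, a gene for the U6 spliceosomal RNA, is at chr15:67840159-67840259 and the lncRNA gene FAM230C at chr13:18212049-18212149.
RNU6-1: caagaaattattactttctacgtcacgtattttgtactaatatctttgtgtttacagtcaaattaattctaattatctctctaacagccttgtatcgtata
FAM230C: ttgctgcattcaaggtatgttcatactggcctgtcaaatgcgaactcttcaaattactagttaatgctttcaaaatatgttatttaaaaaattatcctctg

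Summits at lncRNA genes gathered at the start, and those at the other classes did so far less. The median distance from the summit to the nearest start was 176.5 bp at lncRNA genes, 410 bp at pseudogenes and 451 bp at small RNA genes, against 104 bp for regions at protein-coding starts. A summit placed evenly within 1 kb would have a median of 500 bp. Within 250 bp of the start lay 58.5% of lncRNA members (54.8% to 62.1%), 37.5% of pseudogene members (28.8% to 47.1%) and 33.3% of small RNA members (24.3% to 43.8%), where even placement gives 25%. A gene with many annotated starts shortens the nearest distance. Among members with a single start in reach, a check chosen after the data were seen, 48.2% of 392 lncRNA members, 28.2% of 85 pseudogene members and 32.1% of 81 small RNA members lay within 250 bp.

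**Figure D1:**
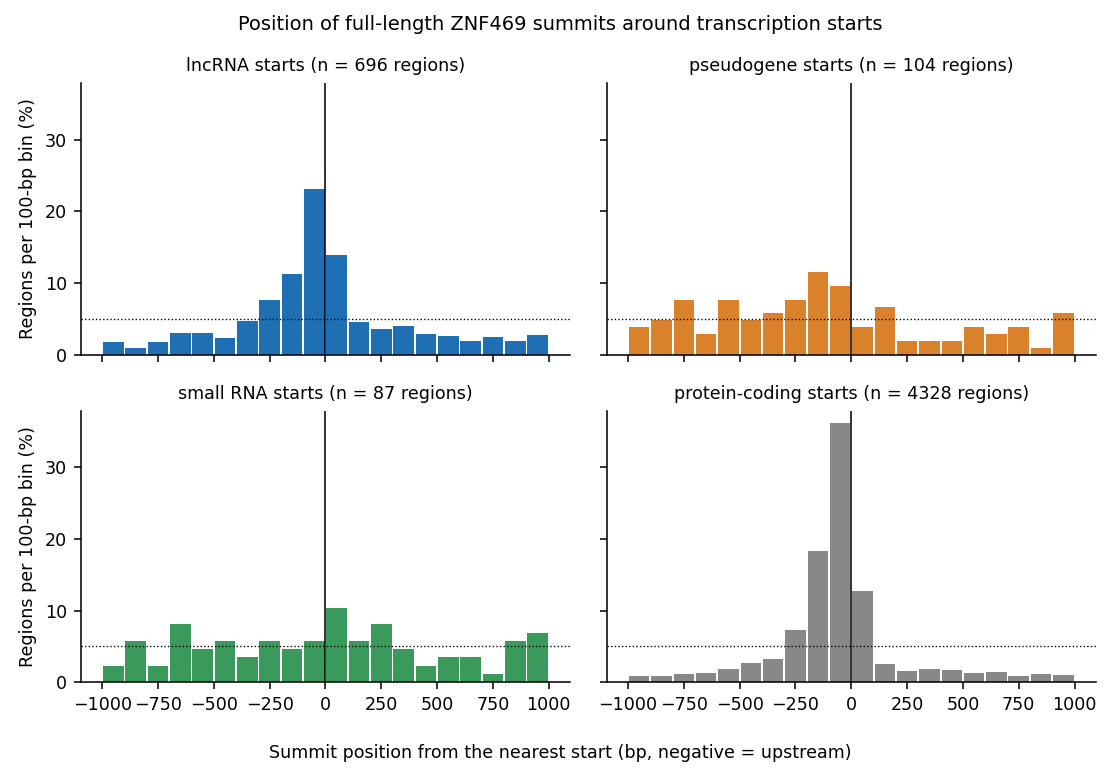
Summit positions of full-length ZNF469 regions around the nearest start, as the percent of each group in 100-bp bins (x axis in bp, negative values upstream on the strand of the gene), for 696 lncRNA, 104 pseudogene and 87 small RNA members and 4328 regions at protein-coding starts. The dotted line is even placement, and the lncRNA and protein-coding groups peak in the bins beside the start. The small RNA bins scatter around the line from 1.15% to 10.3%, with the highest at 0 to 100 bp.

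The side of the start also differed between classes. Upstream summits made up 59.5% of lncRNA members (55.8% to 63.1%), 66.3% of pseudogene members (56.8% to 74.7%) and 48.3% of small RNA members (38.1% to 58.6%), beside 73.9% at protein-coding starts. For lncRNA genes the excess was near the start. There, 267 summits were upstream and 140 downstream within 250 bp, while beyond 250 bp the counts were 147 and 142. In the annotation, 207 lncRNA summits lay in an exon of the nearest gene, 181 in an intron and 308 outside the gene. At pseudogenes 80 of 104 summits, and at small RNA genes 78 of 87, were outside the gene named. A total of 5 members had the summit exactly at a start, among them MIR4458HG, ENSG00000235978 and LIVAR with folds of 10.6, 9.15 and 7.30. At the other edge, the members farthest from a start were 997, 993 and 992 bp away with folds of 8.28, 5.67 and 7.35. The records just outside the limit, at 1003, 1007 and 1010 bp, had folds of 9.03, 4.83 and 6.57.

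In strength the members looked like the rest of the list. The fold enrichment, which is the pileup plus 1 over the local background plus 1, had a median of 7.31 at noncoding starts, 7.45 at protein-coding starts and 7.35 away from starts. The pileup, the number of fragments over the summit in the pooled libraries, had medians of 20.5, 21 and 20. The local background, the number of fragments the peak caller expected there, had medians of 1.86, 1.84 and 1.81. Among classes, the median fold was 7.30 at lncRNA genes, 7.49 at pseudogenes and 7.28 at small RNA genes. Folds of members ran from 2.40 to 21.3, and pileups from 5 to 88. One member was among the 10 regions of highest fold in the list and 8 were among the highest 100. By pileup, none were among the highest 10 and 7 were among the highest 100.

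**Figure D2:**
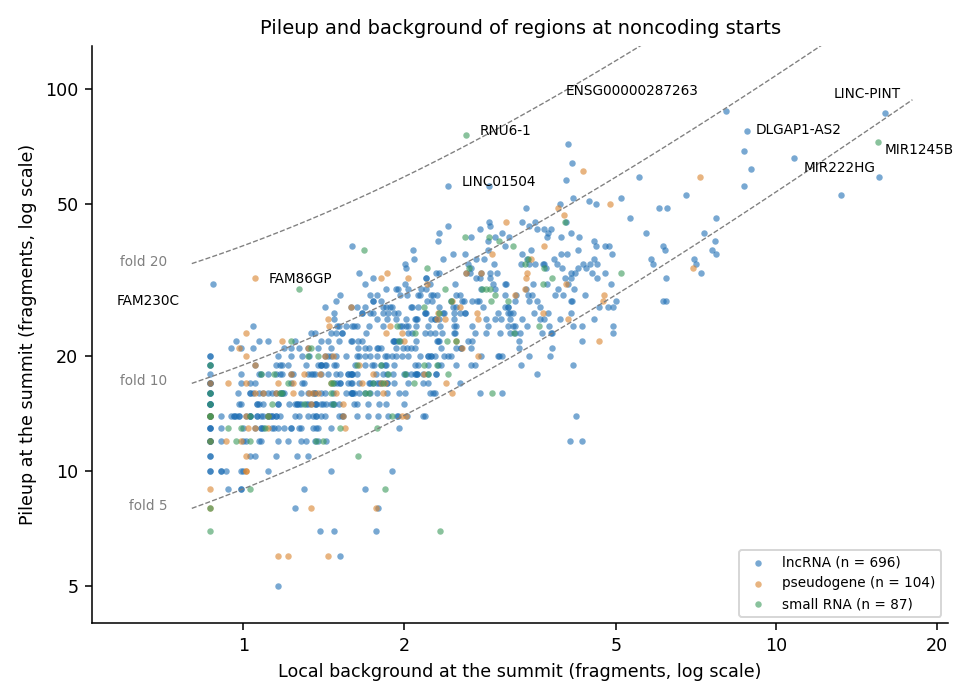
Pileup against local background at the summit of each member (fragments, both axes logarithmic), colored by class, with dashed lines at folds of 5, 10 and 20. RNU6-1 lies above the fold 20 line, and LINC-PINT and MIR1245B combine high pileups with the highest backgrounds.

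Pileup and fold ranked the members differently, and 5 members had a local background over 10 fragments. At LINC-PINT, a p53-responsive lncRNA gene, 87 fragments (exact Poisson 95% limits 69.7 to 107.3) stood over a background of 16, a fold of 5.18. Near MIR1245B, a microRNA gene within an intron of the type III collagen gene COL3A1, the pileup was 73 (57.2 to 91.8) over a background of 15.5, a fold of 4.48. Its summit was 723 bp upstream of the microRNA. At MIR222HG, host of miR-221 and miR-222, the pileup was 66 (51 to 84.0) over 10.8, a fold of 5.68. Signal in the neighborhood was high at these loci, and the fold counts only what stood above it.

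Among lncRNA members, FAM230C had the highest fold at 17.1, with a pileup of 31 fragments (21.1 to 44) over a background of 0.875. This region was 190 bp wide and its central 51 bases, the length of a read, occur at 2 places in hg38. Its fragments may therefore not all be from this locus, and the rest of the region was not checked for copies. LINC01504 followed with a fold of 16.7, a pileup of 56 over 2.42 and a summit 22 bp upstream of a start. ANKRD33B-AS1, antisense within ANKRD33B, had a fold of 14.6 with 56. fragments ENSG00000287167 lies within RAD51B, a gene of homologous recombination, and had a fold of 14.4 with a pileup of 72 (4.07 background) over a width of 968 bp. The list of the 8 highest was completed by FAM86EP, LINC02614, ENSG00000254295 and ENSG00000253295, with folds of 15.4, 13.2, 12.9 and 12.8. By pileup the first lncRNA member was ENSG00000287263, 15 bp from its start, with 88 fragments where 8.03 were expected (fold 9.85). DLGAP1-AS2, antisense within DLGAP1, had 78 fragments over 8.79 and a fold of 8.07.

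Among pseudogene members, FAM86GP had the highest fold at 16.1, with a pileup of 32 over 1.05. MSTO2P, a copy of MSTO1, followed at 11.9, and ENSG00000266373, PKMP3, ENSG00000261635, CIDECP1, VAMP9P and ENSG00000250330 had folds of 11.9, 11.7, 11.6, 11.2, 11.1 and 10.9. PKMP3 and CIDECP1 are copies of the pyruvate kinase gene PKM and the lipid droplet gene CIDEC. The highest pileup was 61 fragments at ENSG00000261635, whose summit was 862 bp upstream of the pseudogene and inside CDIN1. ENSG00000263682, UQCRBP2 and ENSG00000248288 had 59, 50 and 49 fragments. The last lies within ADAMTS6, a gene of a secreted metalloprotease.

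Small RNA members were led by RNU6-1 with a fold of 21.3, the sixth highest of the full-length list, and a pileup of 76 fragments (59.9 to 95.1) over a background of 2.62. The 51 bases at its summit occur once in hg38, but whether the cells or the plasmids held further copies of this sequence was not tested, so its fragments may not all be from this locus. RNU6-411P had a fold of 14.6, RN7SL346P 13.7, a Y RNA copy on chromosome 20 11.6, MIR4280 10.9, RN7SL391P 10.8, MIR4435-2 10.7 and MIR6876 10.3. After RNU6-1, the highest pileups were 73 at MIR1245B, 45 at RNU6-1291P and 41 at the Y RNA copy. None of the 8 summits of highest fold lay at the start itself. The nearest was 87 bp away, at MIR4435-2, and the farthest 974 bp, at RN7SL391P.

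The clearest group of alike members was at the FAM86 family, which was not in any gene list and was picked out after its values were seen. EEF2KMT, the parent gene, encodes a lysine methyltransferase of the translation elongation factor eEF2, and most of the annotated FAM86 copies are typed as noncoding. Of 12 noncoding FAM86 symbols, 10 had a member with related sequence. In every 1 of the 10 the summit was upstream of the FAM86 start, by 238 to 547 bp. Their folds ran from 8.18 (FAM86HP) to 16.1 (FAM86GP) with a median of 11.4, beside 7.31 for all members, and their pileups from 20 to 44 over backgrounds of 0.865 to 2.90. The region at EEF2KMT itself, which belongs to the protein-coding starts, was 417 bp upstream with a fold of 16.9 and 41 fragments. Neither FAM86B1 nor FAM86B2, the other protein-coding symbols of the family, had any such region near a start. Whether reads can be placed uniquely at FAM86B1 and FAM86B2 was not tested.

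In 501-bp windows around the summits, the 45 pairs of FAM86 members aligned over 189 to 497 bp with 89.1% to 98% identity. The 51 bases at each of the 10 summits occur once in hg38. Reads from such near copies can still be exchanged between loci, so the single values are less certain than their counting limits show, and the copies are not independent sites. Of the 10 windows, 7 were CpG-rich and none held AP-1 letters. A further member inside FAM86EP, 286 bp downstream of the start, had no related sequence and a fold of 5.71.

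**Figure D3:**
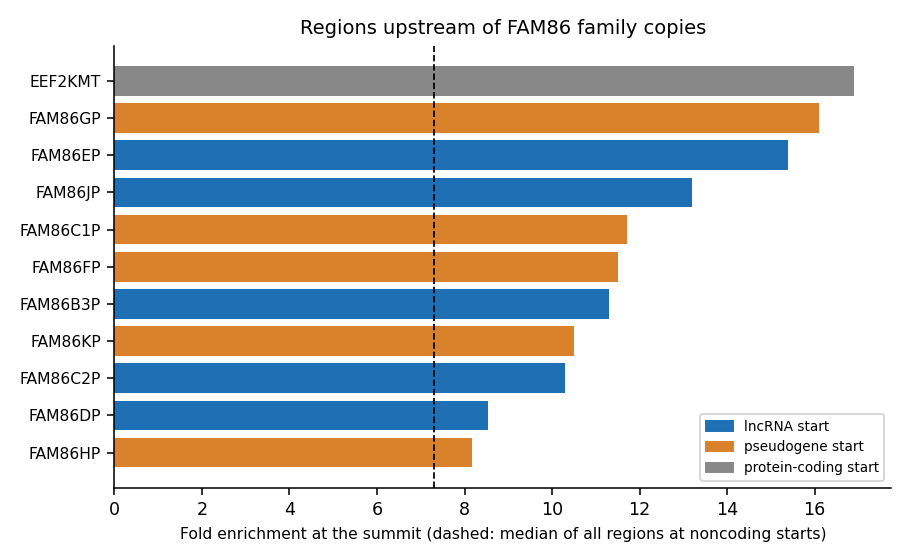
Fold enrichment at the summit (x axis) of the 10 members and the EEF2KMT region that share sequence upstream of FAM86 family genes, colored by the type of the FAM86 gene. All 11 bars pass the dashed line at 7.31, the median fold of all 904 members.

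Apart from the widest set given below, the other sets of related members were smaller. A member counted as related to another full-length region when their 501-bp windows shared at least 20 words of 25 bases. This held for 53 of 904 members (5.86%), 1.76% of regions at protein-coding starts and 3.88% of those away from starts. One set joined RNU5B-1, RNU5E-1 and RNU5D-1, and another RNU1-1 and RNVU1-29. A set of 4 members with STAG3L5P and PMS2P4 had folds of 5.90 to 9.65, and a set of 3 with SEPTIN7P9 and LINC01409 had 9.65 to 11.3. The widest set held 346 regions, 12 of them members with a median fold of 6.51, among them RNU4-2, SNHG26 and MTND4P7. Sets were built by linking related pairs into chains, so regions of a set need not share words directly with each other. In all there were 20 sets with a member, and 851 members were in none.

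Base composition placed the members between the other groups. Within 100 bp of the summit, the median GC content was 48.3% at noncoding starts, 59.7% at protein-coding starts and 43.3% away from starts. CpG-rich windows, defined as over 50% GC with a CpG count over 0.6 of that expected from the base content, made up 17.9% of members (162 of 904), 59.8% at protein-coding starts and 1.11% away from starts. The lncRNA members had 20.7% (17.8% to 23.9%), the pseudogene members 13.5% and the small RNA members 3.45%. Within 250 bp of a lncRNA start 27.3% of members were CpG-rich, and beyond 500 bp 7.84% were. At pseudogenes the same shares were 28.2% and 2.17%, and no small RNA member in either range was CpG-rich. Noncoding starts without a region had 10.6% at lncRNA genes, 10.3% at pseudogenes and 3.69% at small RNA genes. Those windows were centered on the 5' end of the gene rather than on a summit.

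AP-1 letters, TGACTCA on either strand within 100 bp of the summit, were found in 30.8% of members (27.8% to 33.8%), 12.4% of regions at protein-coding starts, 38.6% away from starts and 32.3% of the whole list. Shares by class were 31.0% at lncRNA genes, 28.8% at pseudogenes and 28.7% at small RNA genes. In windows of the same length at noncoding starts without a full-length region the share was 3.36%, and 4.29%, 2.64% and 3.05% by class. Those windows were centered on the 5' end of the gene, not on a summit, so the shares compare only roughly. The share depends on the window, with 16.7% of members at 50 bp and 43.7% at 250 bp on each side. The letters gathered around the summit. Matches numbered 2.07 per 1000 members and bp within 30 bp of the summit and 0.334 at 200 to 247 bp, and the median nearest match, among the 395 members with one inside 250 bp, was 64 bp away. Regions away from starts had 2.69 and 0.323 at these distances.

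**Figure D4:**
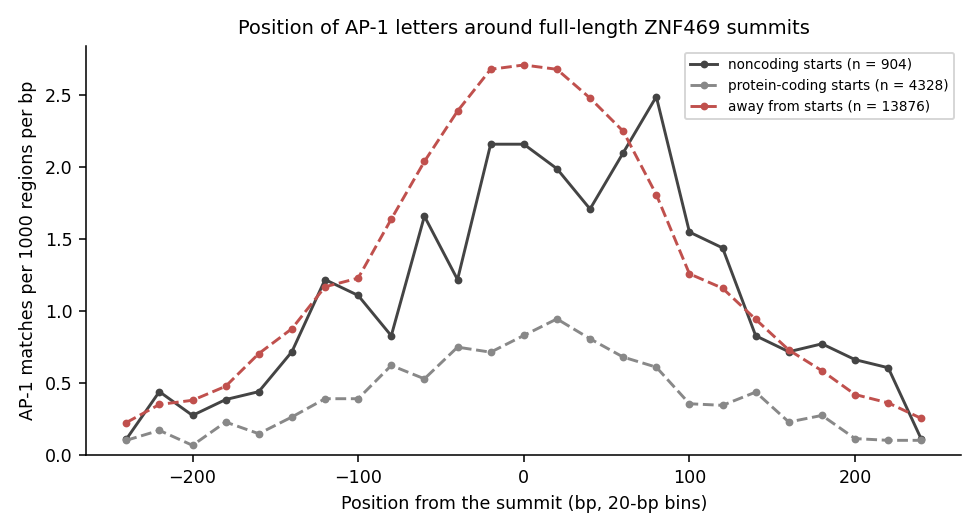
Matches to TGACTCA on either strand per 1000 regions and bp, in 20-bp bins from the summit, for the 904 members and for regions at protein-coding starts and away from starts. The members' curve is raised within about 100 bp of the summit, with its highest bin to one side at 70 to 90 bp, and lies above that of protein-coding starts there.

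AP-1 letters and CpG-rich sequence hardly met. Of 162 CpG-rich members 5 held AP-1 letters (3.09%), against 273 of 742 others (36.8%). The remaining 469 members had neither. Median folds were 7.87 for CpG-rich members, 7.55 for members with AP-1 letters and 7.02 for those with neither. At lncRNA genes AP-1 letters were less frequent close to the start, with 27.8% within 250 bp and 39.2% beyond 500 bp.

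**Figure D5:**
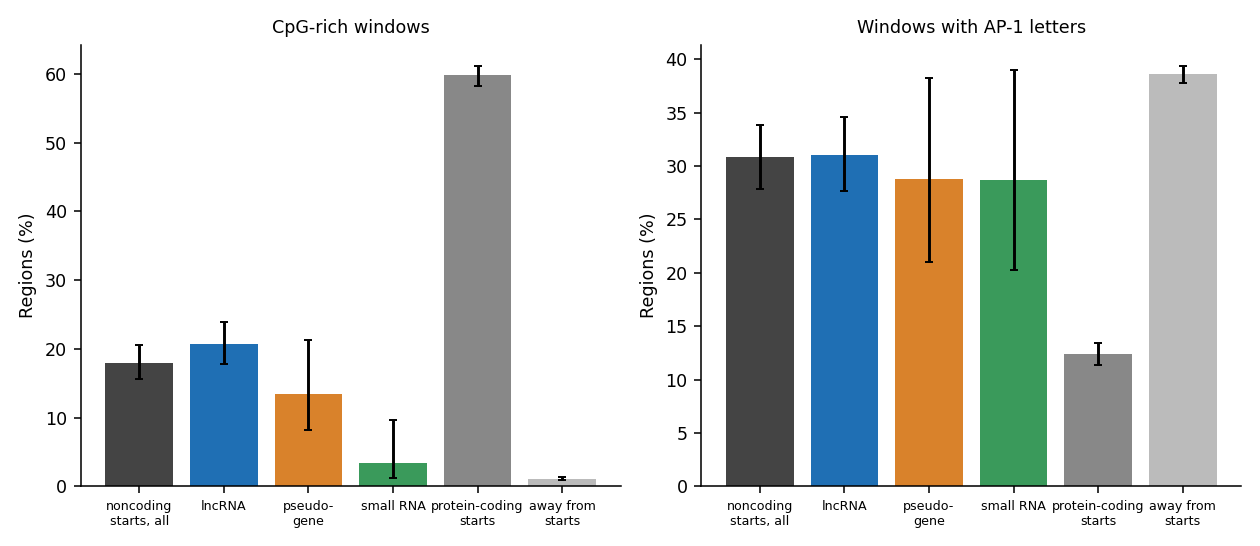
Percent of regions with a CpG-rich window (left) and with AP-1 letters (right) within 100 bp of the summit, for members, their 3 main classes, and the regions at protein-coding starts and away from starts. Error bars are 95% Wilson intervals for counting error, and the members lie between the other 2 groups in both panels.

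Of the other motifs searched on both strands in the same 201-bp windows, where no motif contains another, those typical of coding promoters were less frequent at noncoding starts. The GC box (GGGGCGGGG), read by SP factors, was in 4.31% of members, 16.2% of regions at protein-coding starts, 0.483% away from starts and 4.23% of all regions. The CCAAT box (AGCCAATC) was in 2.10% of members and 6.31% at protein-coding starts, and the ETS letters (CCGGAAGT) in 0.774% and 3.97%, where all regions had 2.11% and 1.16%. NRF1 (GCGCATGCG), YY1 (AAGATGGCG) and CTCF (AGGGGGCGC) letters were each in under 0.5% of members, at 0.332%, 0.221% and 0.221% (0.523%, 0.372% and 0.246% of all regions). The CRE letters (TGACGTCA), read by CREB and ATF factors, were in 1.55% of members, 2.01% at protein-coding starts and 0.691% of all regions. TEAD letters (CATTCCA) were in 6.97% of members, with 5.75% at lncRNA genes, 12.5% at pseudogenes and 11.5% at small RNA genes, and in 8.05% of all regions. Starts without a region had 4.57%, 3.18% and 10.8% in these classes, in windows centered on the 5' end of the gene. The share at small RNA genes was thus close to that of small RNA starts without a region. RUNX letters (TGTGGTT) were in 5.42% of members and 7.51% of all regions. The TATA box, searched for as TATAAA, was in 8.30% and 12.1%, and the E-box in 3.76% and 2.92%.

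Many members stood far from coding genes, and others lay inside them. The nearest protein-coding start was 1 to 3 kb away for 105 members, 3 to 10 kb for 136, 10 to 50 kb for 349, 50 to 100 kb for 119 and over 100 kb for 195. Inside a protein-coding gene body lay 254 members (28.1%, 25.3% to 31.1%), beside 51.5% of regions away from starts. Of these 254, 174 were at a noncoding gene transcribed opposite to the coding gene, 73 at one on the same strand and 7 within coding genes on both strands. Small RNA members were within coding genes most often, with 42 of 87 (48.3%), and 38 of these summits were intronic. The share rests on the starts used, since with the 5' end of each gene as its only start 43.8% of members were inside a coding gene.

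Some noncoding genes had several members. LINC00511, which has 84 annotated starts over 350382 bp, had 4 within 1 kb of its starts, with folds of 5.17 to 8.85. A further 6 genes had 3 each, namely ENSG00000227496, LINC02843, LINC01270, ENSG00000204876, DLEU1 and ENSG00000289851. DLEU1 covers 824688 bp and held 12 full-length regions in all, whereas ENSG00000289851 is 522 bp long with a single annotated start, and its 3 regions had folds of 5.58 to 6.58. Of the genes with 2 members, FAM86EP, the overlapping ENSG00000253917 and LINC01588 were first by their highest fold, with 15.4 for the overlapping pair, which shared its regions, and 11.4 for LINC01588. A total of 79 genes had 2 members and 892 had 1.

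Gene lists place these counts in known biology. Of 24 noncoding genes studied in fibrosis or growth, 6 had a member in reach (25%), where 3.84% of all lncRNA genes did. A list of 24 genes is too short to carry more than this count. A start is that of any annotated transcript and need not be the 5' end of the gene. CYTOR, a lncRNA linked to cytoskeletal genes, had a fold of 7.78 with 16 fragments (9.15 to 26.0) with the summit 176 bp upstream. CDKN2B-AS1, also known as ANRIL and antisense to the cell cycle inhibitor CDKN2B, had a fold of 7.23 with 18 fragments. Values for CASC15 were 6.29 and 13. The CDKN2B-AS1 and CASC15 summits lay in an exon, 17 and 136 bp downstream of a transcript start. DNM3OS, the host of miR-199a and miR-214 in fibroblasts, had a fold of 6.03 with 19 fragments with its summit 17 bp upstream of a start. FTX, a regulator of X inactivation, had 5.61 and 15. LINC-PINT had 2 regions, the one given above and another with a fold of 3.62 with 59. fragments All 7 regions except that of CYTOR had folds below the members' median. Noncoding genes named after a collagen gene numbered 7, and no full-length region lay within 1 kb of their starts. With 7 genes, this count cannot be told apart from the 3.84% of all lncRNA genes.

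The snRNA genes that polymerase II transcribes were met more often than small RNA genes in general, with 6 of 19 in reach (31.6% beside 1.58%). Small RNA genes in general include the many U6, 7SK, 7SL and Y RNA copies, so the 2 shares are not matched. The list is short, and the related RNU5B-1, RNU5E-1 and RNU5D-1 regions are not independent sites. RNU1-1, a U1 gene, had a fold of 8.04 with 14. fragments RNU4-2, a U4 gene, had 6.57 and 22. The U5 genes RNU5B-1, RNU5E-1, RNU5F-1 and RNU5D-1 had folds of 6.54, 5.89, 5.55 and 5.03 with pileups of 17, 18, 13 and 13. All of these summits lay within 289 bp of the start, but on different sides. The RNU1-1, RNU5E-1 and RNU5F-1 summits were 267, 210 and 289 bp downstream of the start and outside the annotated gene. Those of RNU4-2 and RNU5D-1 were 286 and 97 bp upstream, and that of RNU5B-1 was 52 bp downstream, in the gene. These genes exist in near copies, and the 51 bases at the RNU5B-1 summit occur more than once in hg38. Of 19 polymerase III genes 3 were in reach of a member (15.8%), and RNU6-1, with the limit given above, was the only one nearest to a summit. Copies of these genes were met about as seldom as small RNA genes in general, with 19 of 1271 RNU6 pseudogenes (1.49%), 8 of 677 RN7SL (1.18%), 4 of 293 RN7SK (1.37%) and 7 of 809 Y RNA genes (0.865%).

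Copies of protein-coding genes were met as seldom. Of 1601 ribosomal protein pseudogenes 9 had a member (0.562%, beside 0.807% of all pseudogenes), the highest being RPL7AP60 with a fold of 10.2, RPS27P30 with 9.40 and RPL21P18 with 8.49, at distances of 553, 722 and 727 bp. Of 404 pseudogenes of mitochondrial genes 1 did (0.248%), MTND4P7 with a fold of 6.37.

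Host genes of small RNAs had members more often than lncRNA genes in general. The number of annotated starts per gene was not matched in this comparison. For snoRNA hosts, 8 of 32 genes were in reach (25% beside 3.84%). Folds were 10.3 at SNHG17, 10.2 at SNHG30, 9.54 at SNHG25, 8.45 at SNHG29, 6.91 at SNHG12 and 5.23 at SNHG26, with pileups of 33, 30, 34, 26, 20 and 20. These 6 summits lay 4 to 136 bp from a start. For microRNA hosts, 10 of 84 genes were in reach (11.9%). MIR4458HG had a fold of 10.6 with 45 fragments, MIR181A1HG 10.3 and 50, and MIRLET7A1HG 2 regions with folds of 9.09 and 8.92 and pileups of 42 and 41. The folds at MIR583HG, MIR365BHG, MIR100HG and MIR222HG were 7.33, 6.42, 6.33 and 5.68. Distances to the start varied more than at snoRNA hosts. They were 0, 23 and 29 bp at MIR4458HG, MIR181A2HG and MIR100HG, and 40, 47 and 54 bp at MIRLET7IHG, MIR181A1HG and MIR222HG. At MIRLET7A1HG they were 156 and 408 bp, and at MIR583HG, MIR365BHG and MIR22HG 400, 559 and 789 bp.

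The microRNA genes themselves were 23 of the 87 small RNA members. Their summits had a median distance of 214 bp, 10 were upstream, and 12 were inside a protein-coding gene. RefSeq (GRCh38.p14) held mature sequences for 22 of the genes, 28 in all, and no 2 shared a seed (bases 2 to 8, in capitals), so the regions do not gather at 1 microRNA family. The microRNAs below are those of the fibrosis list, of COL3A1 and of the highest folds.
hsa-miR-155-5p: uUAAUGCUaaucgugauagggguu
hsa-miR-22-3p: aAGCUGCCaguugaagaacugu
hsa-let-7a-5p: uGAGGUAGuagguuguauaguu
hsa-miR-1245b-3p: uCAGAUGAucuaaaggccuaua
hsa-miR-4280: gAGUGUAGuucugagcagagc
hsa-miR-4435: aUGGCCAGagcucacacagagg

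Of 46 microRNA genes studied in fibrosis, 4 were in reach of a member (8.70% beside 1.58%), and 3 were nearest to one. The 1.58% is the share of all small RNA genes, which include many copies of other types. The shares are therefore not matched, and a list with 4 genes in reach is too short to carry more than this count. MIR155, a microRNA of inflammation, had a fold of 8.24 with 35 fragments (24.4 to 48.7), with the summit 46 bp downstream of the start. MIR22 had a fold of 5.58 with 33 fragments, with the summit 845 bp upstream, and MIRLET7A2 had 5.55 and 18 at 150 bp upstream.

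With dZF-ZNF469, 902 of the 904 members had no region. The 2 that overlapped one (0.221%) compare with 22 of all 19108 full-length regions (0.115%), so the share is close to the background. At RNU6-1 the full-length pileup was 76 (59.9 to 95.1) and the dZF pileup 77 (60.8 to 96.2), with folds of 21.3 and 27.1 and summits 16 bp apart. At FAM230C the pileups were 31 (21.1 to 44) and 59 (44.9 to 76.1), with folds of 17.1 and 29.7 and summits 2 bp apart. These 2 members have the highest and second highest fold of all members. Pools differ in depth, so pileups compare only roughly between the lists. With the 5' end of each gene as its only start, or with basic transcripts, only RNU6-1 remained, and with 2 kb the regions near DDX11L2 and DDX11L17 joined them. By the same rule, 4 of the 54 dZF regions lay at noncoding starts only. Besides these 2 loci they were at ENSG00000286146 and the pseudogene ENSG00000259098, with folds of 12.3 and 5.4 and no full-length partner.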

How the data were processed

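CUT&RUN libraries of LX-2 cells expressing full-length or dZF-ZNF469 (3 per group) were processed by the authors, per the labels with bcl2fastq, Bowtie2 2.3.4.3 and MACS2 2.2.5 against hg38, and pooled into 1 peak list per group through an irreproducible discovery rate filter. The deposited lists give, for each record, a fold enrichment (a ratio), a −log10 p-value and the summit offset in bp, classed as another unit in the deposited columns. Depth per library was not analysed here. The whole-number pileup and local background were recovered for each record by solving the deposited ratio and −log10 p together (largest miss 6.94e-05 in −log10 p), after the procedure was tested on simulated data. Starts were those of all GENCODE 44 transcripts on chromosomes 1 to 22, X and Y. Wilson and exact Poisson 95% limits cover counting error only. Sequences came from hg38 and RefSeq. Named are the 8 members of highest fold and 4 of highest pileup per class, members in the dZF list, members of gene lists (up to 8 per list), the 10 genes with most members, members at the edges of the distance limit, and microRNA genes. FAM86 was added after its values were seen. Members and lists were chosen with earlier results of these data known. Python 3.11.15, pandas 2.3.3, SciPy 1.17.1, Biopython 1.88 and samtools 1.23.1 were used.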

Additional observations from a re-analysis of the deposited data

How the results depend on the processing

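No paired analysis was possible because the 3 libraries of a group were merged into a single list before deposit, and for the same reason no replicate could be left out. Of 96 recomputed values, 59 stayed within the limits of the main value (1.5 times for a count, the 95% interval for a share or median). The count of members, 904, fell to 442 and 230 with the upper 50% and 25% of the list by fold, by construction. With these cuts the median fold was 8.72 and 9.80, the median pileup 24 and 27.5, the AP-1 share 34.4% and 38.3%, and the share of noncoding genes with a member 1.27% and 0.680%, from 2.38%. The median GC content was 50.2% with the upper 25%.

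With a 500 bp limit, lncRNA genes, pseudogenes and small RNA genes took 82%, 8.60% and 7.35% of members, median GC was 50.2% and 1.84% of noncoding genes had a member. With 2 kb, lncRNA genes took 68.8% and pseudogenes 17.3%, GC was 46.3%, AP-1 letters were in 34.6%, 3.61% of genes had a member and 4 members overlapped a dZF region. With the 5' end of each gene only, lncRNA genes took 74.0% and small RNA genes 11.9%, GC was 50.2%, AP-1 letters were in 26.7%, 43.8% lay in a coding gene and 1 overlapped dZF. Basic transcripts gave 33.6% in a coding gene and 1 dZF overlap. Placing any base of the record gave a GC of 47.3% and 2.65% of genes. The sequence window changed the AP-1 share to 16.7% (50 bp) and 43.7% (250 bp), and GC to 47.3% (250 bp). With a single start in reach, added after the data were seen, 48.2% of lncRNA and 28.2% of pseudogene members lay within 250 bp. Except where the construction shows it, the cause was not tested.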

Other observations

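The 17 members outside the main classes were mostly at loci whose type is still to be settled experimentally (13 of 17, typed TEC). The highest were ENSG00000279235 with a fold of 10.5 and 33 fragments, ENSG00000279409 with 10 and 29, and ENSG00000289466 with 9.67 and 27. The other 4 were nearest to segments of T cell receptor genes, which are rearranged in T cells only, and TRBV13 had a fold of 7.43 and 28 fragments. AP-1 letters were in 7 of the 17 windows.

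LOXL2-AS1, antisense within the lysyl oxidase gene LOXL2, had 2 members, with folds of 10.6 and 4.73 and pileups of 30 and 13. Its summits were 61 bp upstream and 341 bp downstream of starts. The gene was noticed after the values were seen.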
